A study of Mus musculus with 4 samples.

Results

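Pairs of respiratory chain genes with a broadly used form and a second form were followed through the mouse testis, 8 genes in all of the 55357 genes in the files. They were *Cycs* and *Cyct* for cytochrome c, and *Cox4i1* and *Cox4i2*, *Cox6b1* and *Cox6b2*, and *Cox8a* and *Cox8c* for subunits of cytochrome c oxidase. Members were taken by gene symbol, and the set was chosen by a measured value, the higher level of *Cycs* in Sertoli nuclei of both Dhx37-/- libraries. The difference between genotypes in Sertoli nuclei is therefore given as a description, with no test. Single-nucleus RNA was measured in whole testes of 8-week-old males (P60 in the study's text), in 2 WT and 2 Dhx37-/- libraries. The Dhx37-/- mice carried floxed *Dhx37* alleles and an *Amh*-Cre transgene, which acts in Sertoli cells. WT mice were littermates. The libraries are named as biological replicates, and nothing states how many animals went into each, so p-values measure the spread between these 4 libraries.

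Cytochrome c is a small heme protein of the mitochondrial intermembrane space that carries electrons from complex III to cytochrome c oxidase (complex IV), and that triggers the apoptosome once it is released into the cytosol. Oxidase subunits encoded in the nucleus surround the catalytic core encoded by mitochondrial DNA, and several of them exist as tissue forms. *Cyct* encodes the testis cytochrome c found in spermatocytes, spermatids and sperm, *Cox6b2* encodes the testis form of COX6B and *Cox8c* the testis form of COX8, whereas *Cox4i2* encodes a form of COX4 best known from lung and from cells that sense oxygen.

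To set a common beside a testis form, the 250 bases before the start site are printed for the cytochrome c and COX6B pairs, from RefSeq on GRCm38.p6, 5′ to 3′ on the strand of the gene. All 4 genes lie on the minus strand, at chr6:50566570-50566819 for *Cycs*, chr2:76360454-76360703 for *Cyct*, chr7:30626115-30626364 for *Cox6b1* and chr7:4753095-4753344 for *Cox6b2*. Capitals mark exact matches on either strand to the motifs TGACG (with its palindrome TGACGTCA, the cAMP response element), GCATGCGC (the core of the NRF-1 site), CCGGAAG (an ETS site) and CCAAT.
Cycs: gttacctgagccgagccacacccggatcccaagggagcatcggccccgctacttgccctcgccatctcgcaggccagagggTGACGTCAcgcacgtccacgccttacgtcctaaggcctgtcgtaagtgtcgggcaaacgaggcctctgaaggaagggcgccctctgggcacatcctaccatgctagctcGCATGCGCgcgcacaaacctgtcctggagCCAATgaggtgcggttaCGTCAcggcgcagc
Cyct: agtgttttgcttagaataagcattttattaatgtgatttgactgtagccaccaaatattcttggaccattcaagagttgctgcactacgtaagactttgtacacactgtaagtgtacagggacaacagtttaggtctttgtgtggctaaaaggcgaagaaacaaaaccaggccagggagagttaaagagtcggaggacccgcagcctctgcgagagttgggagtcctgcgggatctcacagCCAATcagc
Cox6b1: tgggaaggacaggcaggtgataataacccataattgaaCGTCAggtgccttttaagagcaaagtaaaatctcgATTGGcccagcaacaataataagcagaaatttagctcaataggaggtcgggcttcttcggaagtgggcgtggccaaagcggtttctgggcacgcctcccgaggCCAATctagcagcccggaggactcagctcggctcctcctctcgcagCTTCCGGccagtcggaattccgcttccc
Cox6b2: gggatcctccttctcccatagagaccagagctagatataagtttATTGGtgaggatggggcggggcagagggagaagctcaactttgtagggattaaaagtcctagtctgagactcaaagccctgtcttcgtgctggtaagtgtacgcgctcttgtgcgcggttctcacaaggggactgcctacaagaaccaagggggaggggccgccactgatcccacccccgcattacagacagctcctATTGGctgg
The *Cycs* promoter held the palindrome at position -169 from the start site, which 1.55% of 32851 promoters of the same length held, and GCATGCGC at position -60, which 2.26% held. TGACG, which overlaps the palindrome, was in the promoters of *Cycs*, *Cox6b1* and *Cox8a* (17.8% of all promoters), and CCGGAAG was in that of *Cox6b1* alone among those looked up (6.91%). The *Cyct* and *Cox6b2* promoters held only CCAAT, in 1 and 2 copies, which was in all 5 promoters looked up and in 33.9% of all promoters. G and C made up 64.0% of the bases for *Cycs* and 45.6% for *Cyct*, but 54.0% and 54.8% for *Cox6b1* and *Cox6b2*. *Cox4i1*, *Cox4i2* and *Cox8c* are named only.

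After filtering, 8287 to 10033 nuclei per library were kept, with a median of 3302 to 4157 UMIs (unique transcript molecules) per nucleus and 51797891 to 75611263 UMIs in all barcodes of a library. Nuclei were assigned to classes by marker genes that include no member, and 75.5% to 87.1% of nuclei stayed without a class. Compared were 497 Sertoli, 523 Leydig, 535 macrophage, 568 fibroblast, 187 spermatogonia, 500 early prophase spermatocyte, 1362 late spermatocyte, 896 round spermatid and 1502 elongating spermatid nuclei. In each class 9 or more of its markers were raised over the mean of the other classes. The gate used these markers, so that rise is no check of the class. None of the 13 spermatogonia markers was among that class's 10 leading genes. Of Sertoli nuclei, WT replicates 1 and 2 gave 58 and 23, and Dhx37-/- replicates 1 and 2 gave 173 and 243. UMIs were summed per class and library and scaled to CPM of that sum, which is a relative level. Free RNA was the sum of the barcodes ranked 45000 to 90000 by UMIs, taken to hold no nucleus, and its share in each class was estimated from protamine and transition protein transcripts. WT replicate 1 had the highest such share in each of the 9 classes, up to 43.4% in late spermatocytes against 17.6% to 18.1% in the other 3 libraries. Pairs of libraries shared 19 to 29 kept barcodes. *Dhx37* in Sertoli nuclei was at 7.40 and 26.0 CPM in the WT and at 4.97 and 7.02 CPM in the Dhx37-/- libraries, from 3, 3, 5 and 13 UMIs, and 3′ tags outside the deleted exon do not check the deletion.

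The class with the highest mean differed among the 8 genes. *Cycs* had its highest mean in Sertoli nuclei, by the Dhx37-/- values that chose the set, *Cox6b1* and *Cox8a* in Leydig nuclei, *Cyct* and *Cox8c* in late spermatocytes, *Cox6b2* and *Cox4i2* in round spermatids and *Cox4i1* in early prophase spermatocytes. Neighbours in these orders overlapped in their ranges over the 4 libraries, except that *Cox6b2* in round spermatids lay above all values of the next class, late spermatocytes, and *Cox8a* in early prophase spermatocytes above all values of Sertoli nuclei.

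**Figure D1:**
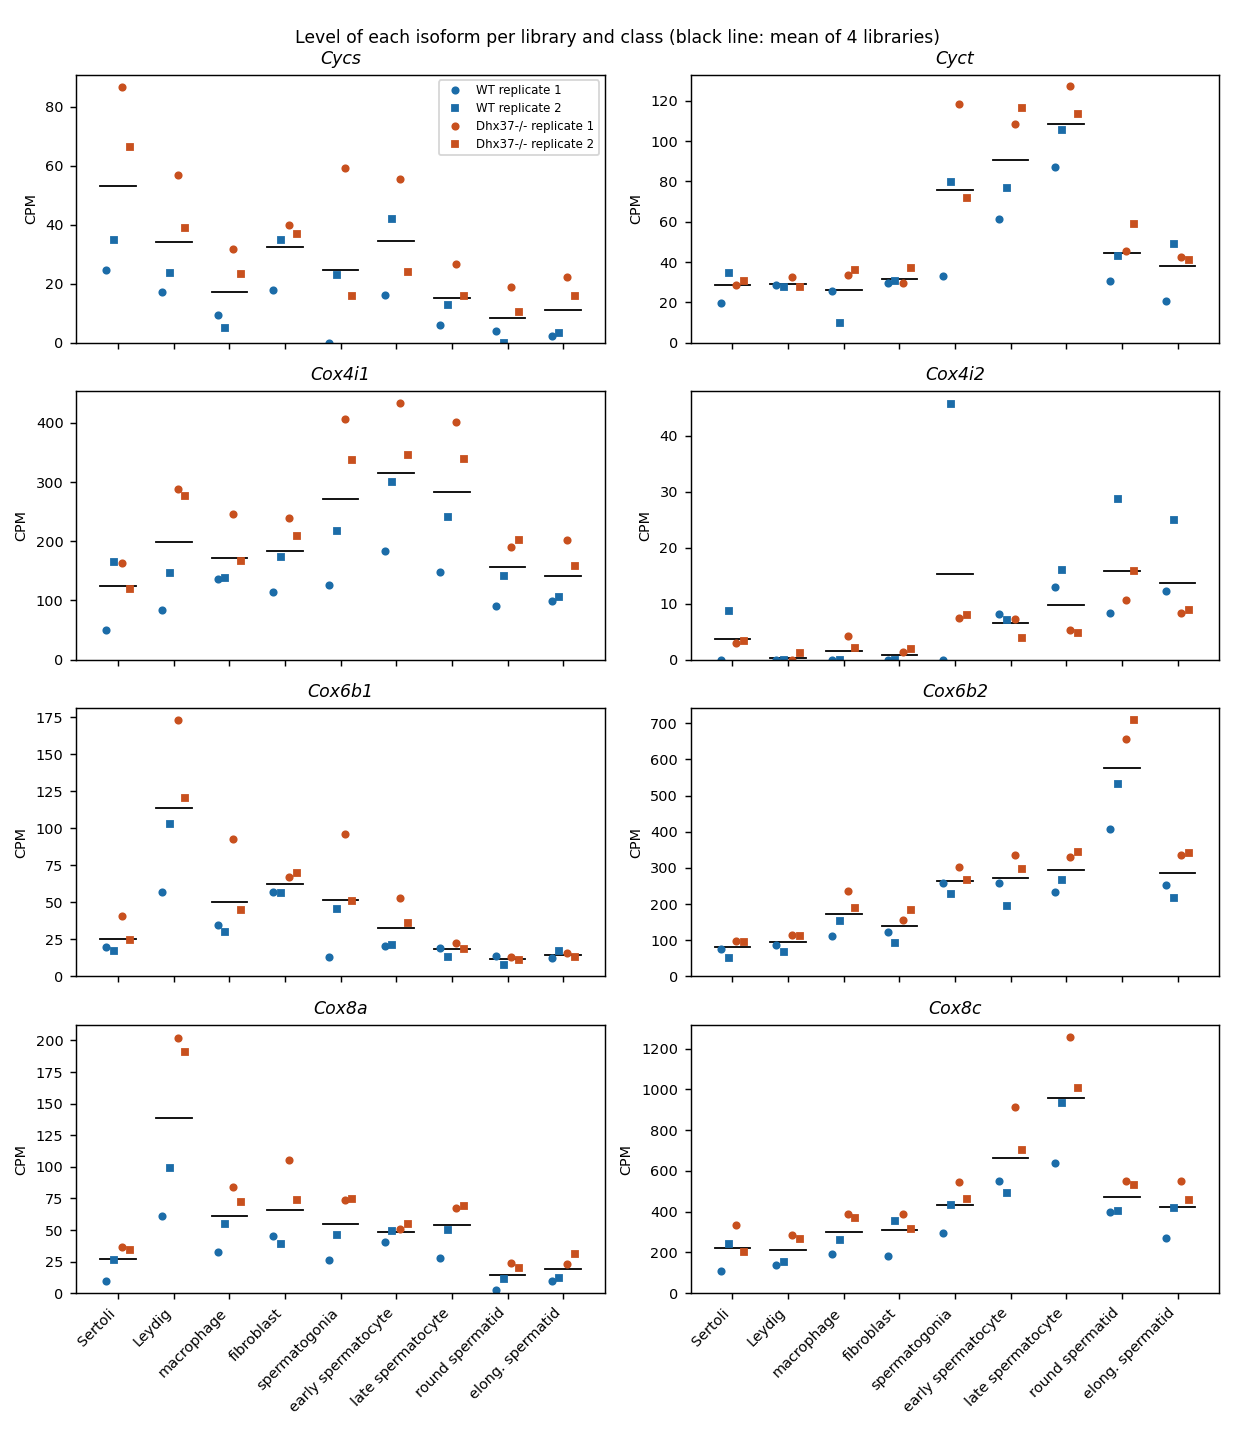
Level of each isoform in CPM (linear axes from 0) in the 9 classes of nuclei, with 1 point per library, WT in blue, Dhx37-/- in orange, and a black line at the mean of the 4 libraries. *Cox6b2* in round spermatids (408 to 709 CPM) stands above every other class, and *Cox6b1* and *Cox8a* are highest in Leydig nuclei.

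Of the cytochrome c pair, *Cycs*, the form used by most tissues, was at 53.1 ± 28.5 CPM in Sertoli nuclei (SD, n = 4), with 24.7, 34.7, 86.6 and 66.4 CPM in WT replicates 1 and 2 and Dhx37-/- replicates 1 and 2. Over the WT libraries alone its means were 29.7 CPM in Sertoli, 29.2 CPM in early prophase and 26.2 CPM in fibroblast nuclei, and in WT replicate 2 early prophase (41.9 CPM) lay above Sertoli nuclei. It was at 15.3 ± 8.65 CPM in late spermatocytes and 8.30 ± 8.15 CPM in round spermatids, where the 4 libraries gave 4.15, 0, 18.8 and 10.3 CPM. The 0 in WT replicate 2 allows a level of up to 4.77 CPM, for counting error only. Round spermatids lay below Sertoli nuclei in each library, by a log2 fold change of -2.82 ± 0.39 (SE), given with no test because it draws on the Sertoli values that chose the set. They lay below Leydig nuclei by -2.06 ± 0.38 (edgeR quasi-likelihood test, adjusted p = 5.07e-07). In that comparison *Cycs* passed the filter on low counts through its Leydig values, the higher ones. The part that free RNA alone would give was 9.48 CPM in round spermatids, above the measured mean, and 6.54 CPM in Sertoli nuclei. From spermatogonia to late spermatocytes *Cycs* did not pass the test (-0.41 ± 0.52, adjusted p = 0.53).

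*Cyct*, the testis form, was highest in spermatocytes. Late spermatocytes held 87.3, 106, 127 and 114 CPM in the order of libraries above, and Sertoli nuclei 19.7, 34.7, 28.9 and 30.8 CPM, with no overlap. Of the Sertoli mean of 28.5 ± 6.35 CPM, 20.4 CPM was the part expected from free RNA, and of the mean of 108 ± 16.6 CPM in late spermatocytes 41.1 CPM. In each library round spermatids were below late spermatocytes, at 44.5 ± 11.7 CPM. From spermatogonia to late spermatocytes *Cyct* did not pass the test (0.65 ± 0.30, adjusted p = 0.0716), and free RNA would give 50.0 CPM of the spermatogonia mean of 75.8 ± 35.1 CPM. It passed narrowly between round spermatids and Leydig nuclei (0.58 ± 0.28, adjusted p = 0.0481), and DESeq2 gave an adjusted p of 0.121 there. The call was also lost without either Dhx37-/- library (0.67 and 0.41), without the filter on low counts (adjusted p = 0.0533) and without the library block (0.0763).

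As a share of the cytochrome c UMIs of each class, *Cyct* was at 48.6% in Leydig, 63.1% in macrophage and 88.3% ± 4.51 in late spermatocyte nuclei (SD, n = 4, 82.6% to 93.5%). In Sertoli nuclei it was at 44.4% and 50% in the WT libraries. It was at 25% and 31.7% in the Dhx37-/- libraries, where the *Cycs* UMIs that chose the set are in the denominator, as they are in the 4-library mean of 37.8% ± 11.5. Over the WT libraries alone fibroblasts, at 62.5% and 46.7%, overlapped Sertoli nuclei. The exact 95% binomial interval was 15.7% to 84.3% in Sertoli nuclei of WT replicate 2, where 8 UMIs were counted, and 77.8% to 86.8% in late spermatocytes of Dhx37-/- replicate 1, where 293 were counted. Intervals cover counting error only. Free RNA held 76.6% ± 6.11. With the expected free RNA taken away, the share was 18.1% in Sertoli nuclei, with the same *Cycs* UMIs, and 95.7% in late spermatocytes. In late spermatocytes of WT replicate 1 no *Cycs* UMI was left, so the share there is complete by construction.

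**Figure D2:**
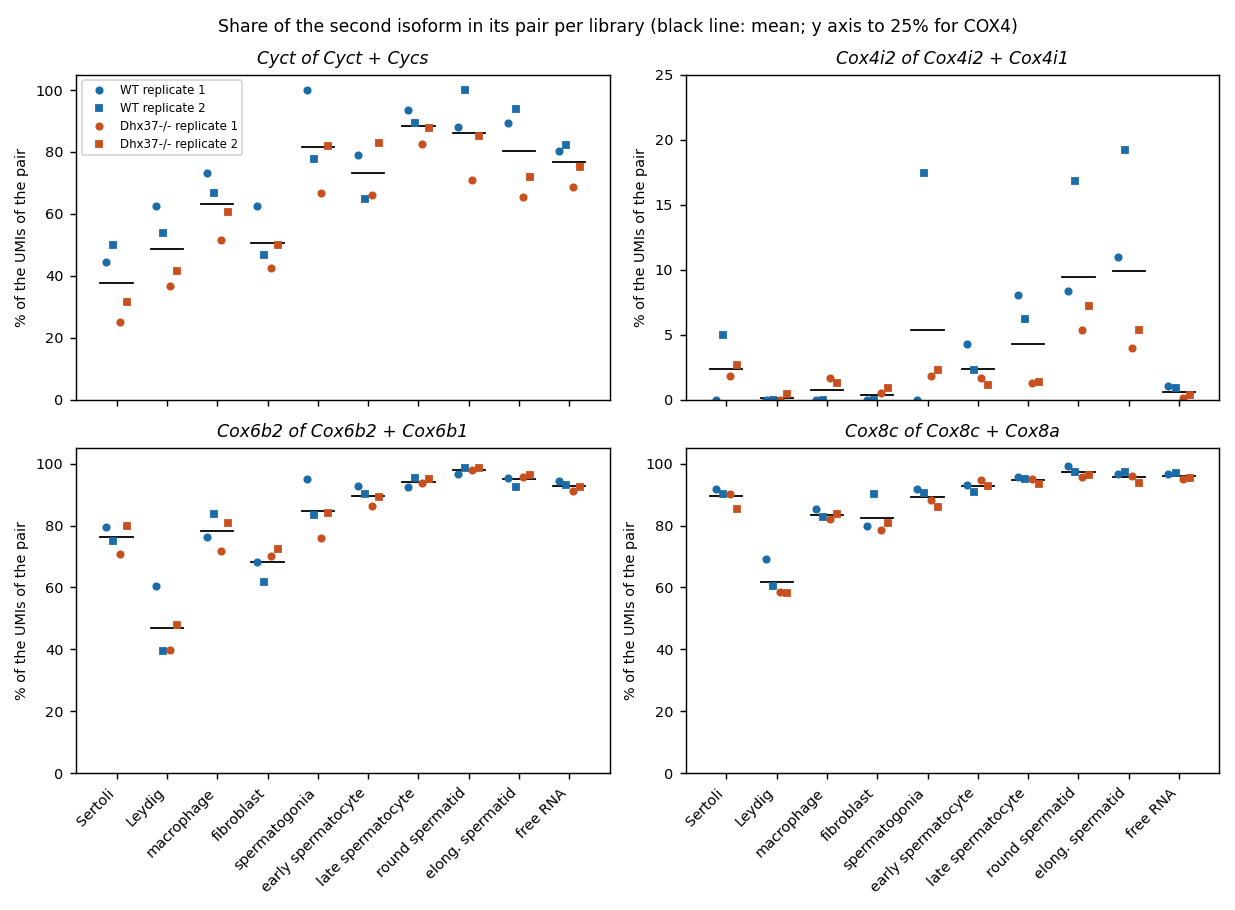
Share of the second isoform among the UMIs of its pair, in percent, per library and class and in free RNA, with the mean as a black line. The COX4 panel runs to 25% and the others to just above 100%, and *Cyct* lies between 82.6% and 93.5% in late spermatocytes. In Sertoli nuclei it lies at 44.4% and 50% in WT, and lower in Dhx37-/-, where the *Cycs* UMIs that chose the set are in the denominator.

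In the COX6B pair, which sits on the side of the oxidase where cytochrome c docks, the forms were highest in different classes. *Cox6b2* was at 408, 533, 655 and 709 CPM in round spermatids, 233.9 to 344 CPM in late spermatocytes and 217 to 342 CPM in elongating spermatids. The round spermatid values stand apart from both. It rose from spermatogonia to round spermatids (1.26 ± 0.27, adjusted p = 0.000608) and fell from round to elongating spermatids (-0.97 ± 0.12, adjusted p = 4.72e-08). In Sertoli and Leydig nuclei it was at 80.7 and 95.1 CPM, while free RNA alone would give 91.1 and 106 CPM. Round spermatids held 2.70 ± 0.29 more on the log2 scale than Sertoli nuclei (adjusted p = 1.83e-20) and 2.55 ± 0.26 more than Leydig nuclei (adjusted p = 1.93e-17).

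*Cox6b1*, the common form, was at 57.2, 103, 173 and 120 CPM in Leydig nuclei and at 13.8, 7.95, 13.4 and 10.99 CPM in round spermatids, again without overlap (-3.29 ± 0.29, adjusted p = 1.17e-20). *Cox6b1* passed the filter on low counts there through its Leydig values, the higher ones, and in the comparison with Sertoli nuclei through its Sertoli values. The part expected from free RNA was 8.33 CPM in Leydig nuclei and 10.4 CPM in round spermatids, beside a measured mean of 11.5 CPM in round spermatids. *Cox6b1* also fell between spermatogonia and late spermatocytes (-1.35 ± 0.43, adjusted p = 0.00984), a call lost without Dhx37-/- replicate 1 (-1.001, adjusted p = 0.162) and without the filter on low counts (-0.94, adjusted p = 0.106), where the median of all genes was 0.72 against 0.11 before. With a stricter gate or with free RNA subtracted *Cox6b1* was too sparse to be tested there. *Cox6b2* made up 47.0% ± 9.82 of COX6B UMIs in Leydig nuclei, 76.2% ± 4.27 in Sertoli nuclei and 97.9% ± 0.84 in round spermatids. Without the expected free RNA the mean Sertoli share was 6.55% and the mean round spermatid share 99.5%. In round spermatids of WT replicate 2 and both Dhx37-/- libraries no *Cox6b1* UMI was left, so the share there is complete by construction. In Sertoli nuclei that part exceeded the *Cox6b2* level in both WT libraries and Dhx37-/- replicate 1 (93.1, 78.2 and 103 beside 76.5, 52.1 and 98.5 CPM). No *Cox6b2* UMI was left in these Sertoli sums, so the 6.55% comes from Dhx37-/- replicate 2 alone, averaged over the libraries.

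Of the COX8 pair the germ cell form had its highest mean in late spermatocytes, whereas *Cox6b2* had it in round spermatids. *Cox8c* was at 641, 934, 1260 and 1005 CPM in late spermatocytes, above its spermatogonia values of 297, 434, 548 and 460 CPM in each library (1.21 ± 0.20, adjusted p = 6.67e-06). The ranges of the classes do not overlap, and free RNA alone would give 475 CPM in spermatogonia, above their mean of 434.7 CPM, and 387 CPM in late spermatocytes. In round spermatids it was at 397 to 549 CPM, and from spermatogonia to round spermatids the difference did not pass (0.29 ± 0.26, adjusted p = 0.333). In Sertoli and Leydig nuclei *Cox8c* was at 223 and 210.2 CPM, beside 194 and 223 CPM expected from free RNA.

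*Cox8a*, the form of most tissues, was at 61.0, 99.1, 202 and 191 CPM in Leydig nuclei and at 2.77, 11.1, 24.1 and 19.9 CPM in round spermatids. All round spermatid values lay below all Leydig values (-3.31 ± 0.28, adjusted p = 6.67e-22). *Cox8a* passed the filter on low counts there through its Leydig values, the higher ones. It had also fallen from spermatogonia to round spermatids (-1.82 ± 0.41, adjusted p = 0.00107), but not detectably from spermatogonia to late spermatocytes (0.02 ± 0.35, adjusted p = 0.966). In the comparison of spermatogonia with round spermatids it passed the filter through its spermatogonia values, again the higher ones. The round spermatid mean of 14.5 CPM compares with 12.1 CPM expected from free RNA. The share of *Cox8c* among COX8 UMIs was lowest in Leydig nuclei (61.6% ± 5.16) and highest in round spermatids (97.2% ± 1.54).

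The COX4 pair differed from the others, since the common form had its highest mean in a germ cell class. *Cox4i1*, the largest of the nuclear-encoded subunits, was at 149, 241, 402 and 338 CPM in late spermatocytes, at 83.9, 147, 288 and 276 CPM in Leydig nuclei and at 49.3, 165, 163 and 119 CPM in Sertoli nuclei. These ranges overlap, 140 CPM of the late spermatocyte mean is expected from free RNA, and *Cox4i1* passed the test in none of the 5 class comparisons in the main edgeR fit (largest, -0.59 ± 0.26 from spermatogonia to round spermatids, adjusted p = 0.0585). DESeq2 called it between round spermatids and Sertoli nuclei (0.62, adjusted p = 0.0371), where the median of all genes was 0.32 against 0.02 in the main edgeR fit. There edgeR called it too with other size factors (0.63), with doublets removed (0.96) and without Dhx37-/- replicate 1 (1.02) or 2 (0.71). That median was also higher in these fits. The annotated *Cox4i1* gene overlaps *Gm20388* on its own strand and *Emc8* on the other, so its counts are less certain.

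*Cox4i2* was scarce in every class. It was at 8.31, 28.6, 10.7 and 15.8 CPM in round spermatids (6, 18, 8 and 23 UMIs) and at 12.2, 24.99, 8.36 and 8.89 CPM in elongating spermatids. In Leydig nuclei a single library held 1 UMI, and the 0 counts in the other 3 allow up to 3.28 to 11.9 CPM. Its share of COX4 UMIs was 9.43% ± 5.08 in round and 9.87% ± 6.90 in elongating spermatids (21.4% in round spermatids without the expected free RNA), with WT replicate 2 the highest at 16.8% and 19.2%. It was too sparse for a test in the comparisons with spermatogonia, Sertoli and Leydig nuclei, and from round to elongating spermatids it did not pass (-0.23 ± 0.33, adjusted p = 0.527). Without the filter on low counts *Cox4i2* was called higher in round spermatids than in Sertoli (2.09 ± 0.56, adjusted p = 0.000529) and Leydig nuclei (adjusted p = 4.66e-08), and was not called against spermatogonia (1.17 ± 0.62, adjusted p = 0.165). The Sertoli and Leydig sums held 0 to 6 UMIs.

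Read against all genes, these changes were common in kind. From spermatogonia to late spermatocytes 2 of 7 members tested were called, where 53.3% of all genes tested were called. From spermatogonia to round spermatids 2 of 5 were called (64.8% of all genes), and from round to elongating spermatids 1 of 7 (79.7%). Between round spermatids and Sertoli nuclei 5 of 7 were called (84.5%), with *Cox6b2* and *Cox8c* higher (42.1% of genes) and *Cycs*, *Cox6b1* and *Cox8a* lower (42.5%), where the call of *Cycs* is no result, since its Sertoli values chose the set. Against Leydig nuclei 6 of 7 were called (86.3%), with *Cyct*, *Cox6b2* and *Cox8c* higher (43.5%) and *Cycs*, *Cox6b1* and *Cox8a* lower (42.7%). In the Sertoli comparison the median of all genes moved with the setting, from 0.02 to 0.30 with other size factors (RLE), 0.32 in DESeq2, 0.62 with doublets removed, and 0.70 and 0.53 without Dhx37-/- replicate 1 and 2. Some calls moved with it. *Cox6b1* (-1.30 ± 0.39) and *Cox8a* (-1.01 ± 0.38) were not called in DESeq2, with doublets removed or without either Dhx37-/- library, where *Cyct* and *Cox4i1* were called higher in their place. With RLE *Cox8a* alone was lost (-0.66 ± 0.35, adjusted p = 0.0704) and *Cyct* and *Cox4i1* were gained (0.91 and 0.63). Without WT replicate 1 *Cyct* was called (0.80) in place of *Cox8a* (-0.74), which was not called without the filter on low counts either (-0.95). Less the median of all genes, *Cox6b1* was at -1.45 to -1.15, *Cox8a* at -1.18 to -0.80, *Cyct* at 0.47 to 0.78 and *Cox4i1* at 0.18 to 0.58 in every fit except that with free RNA subtracted.

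Other subunits of the oxidase were mixed. In this list and those below, a gene could pass the filter on low counts through its higher class alone. Which class did so was not looked up per gene, so the counts are descriptions. Of 15 on the list, 10 were tested between round spermatids and Sertoli nuclei, of which 4 rose and 2 fell (median 0.28, against 0.02 for all genes), where 42.1% of all genes rose and 42.5% fell. Against Leydig nuclei 2 of 11 rose and 7 fell (median -0.65), where 43.5% and 42.7% of all genes did. *Cox7b2*, the testis form of COX7B, rose against Sertoli (1.59 ± 0.29) and Leydig nuclei (1.74 ± 0.25) and from spermatogonia to late spermatocytes (1.17 ± 0.23), and fell from round to elongating spermatids (-0.64 ± 0.15). *Cox7b*, its common form, was lower in round spermatids than in Leydig nuclei (-4.30 ± 0.40, adjusted p = 2.26e-19). *Cox7a2l*, a factor that joins complexes III and IV, rose from spermatogonia to late spermatocytes (1.12 ± 0.41) and from round to elongating spermatids (1.27 ± 0.25), and *Ndufa4*, counted with the oxidase, fell from spermatogonia to round spermatids (-2.55 ± 0.39).

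Of 22 assembly factors of the oxidase, 10 could be tested between round spermatids and Sertoli nuclei, of which 7 fell and 0 rose (median -1.40), where 42.5% of all genes fell. Against Leydig nuclei 9 of 11 tested fell and 0 rose (median -1.36), where 42.7% of all genes fell. Genes that fell may have passed the filter on low counts through the Sertoli or Leydig values alone, so no support is drawn from these counts. *Taco1*, which activates translation of the mitochondrial COX1 transcript, was lower in round spermatids than in Sertoli nuclei (-4.95 ± 0.50), Leydig nuclei (-4.62 ± 0.48) and spermatogonia (-6.28 ± 0.51), and lower in late spermatocytes than in spermatogonia (-4.41 ± 0.40). *Cox10*, of heme A synthesis, was lower in round spermatids than in Sertoli nuclei (-3.87 ± 0.44) and spermatogonia (-3.61 ± 0.56) and rose again in elongating spermatids (3.30 ± 0.39), as did *Coa5* (1.97 ± 0.35). *Lrpprc*, which stabilises mitochondrial mRNAs, fell from spermatogonia to late spermatocytes (-2.55 ± 0.39), was lower in round spermatids than in Sertoli nuclei (-2.29 ± 0.29) and fell from round to elongating spermatids (-0.79 ± 0.27), while *Coa3* rose from spermatogonia to late spermatocytes (1.38 ± 0.59).

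Complex III, which feeds cytochrome c, had 10 subunits on the list. Between round spermatids and Leydig nuclei 1 of 10 tested rose and 7 fell (median -1.05), where 43.5% of all genes rose and 42.7% fell. Between round spermatids and Sertoli nuclei 2 of 9 rose and 2 fell, where 42.1% and 42.5% of all genes did. *Uqcrfs1*, the Rieske protein, rose against Sertoli nuclei (1.58 ± 0.34), Leydig nuclei (0.94 ± 0.27) and spermatogonia (0.89 ± 0.38) and fell from round to elongating spermatids (-1.20 ± 0.21). *Cyc1*, cytochrome c1, fell from spermatogonia to late spermatocytes (-3.13 ± 0.48). Of 9 genes for cytochrome c maturation, import and the apoptosome, few could be tested. Against Leydig nuclei 1 of 5 rose in round spermatids, *Gfer* of the import pathway (1.25 ± 0.26, and 1.66 ± 0.30 against Sertoli nuclei), and 3 fell, of which *Apaf1*, the apoptosome scaffold that binds cytochrome c, fell most (-3.86 ± 0.58).

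Outside nuclei the isoform transcripts were relatively more abundant, with 1 exception. All 8 members differed between free RNA and kept nuclei, where 69.2% of 26686 genes were called. Higher in free RNA were 7 members (31.8% of genes), by 1.46 ± 0.21 for *Cox6b2* to 2.23 ± 0.18 for *Cycs* on the log2 scale. *Cycs* was at 24.7, 46.4, 106 and 76.5 CPM in free RNA and at 9.15, 8.81, 27.2 and 19.1 CPM in kept nuclei. *Cox8c* was at 810, 2040, 2475 and 2205 CPM in free RNA and at 332, 453, 616 and 534 CPM in kept nuclei. In both genes every library had more in free RNA.

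*Cox4i2* was lower in free RNA (-2.13 ± 0.22, adjusted p = 1.76e-06), as were 37.4% of all genes. It was at 3.22, 5.49, 0.97 and 2.85 CPM there against 12.5, 27.5, 11.8 and 12.0 CPM in kept nuclei, from 42, 38, 11 and 27 UMIs against 435, 866, 414 and 541 UMIs. Its share of COX4 UMIs was 9.49% ± 5.63 in nuclei and 0.59% ± 0.45 in free RNA. The other oxidase subunits were like the other members, since 14 of 15 were higher in free RNA (median 1.94, against -0.16 for all genes), led by *Cox7a1* (2.70 ± 0.27), and *Cox6a2* was lower (-0.91 ± 0.29). All 10 complex III subunits were higher (median 1.95), among them *Uqcr10* (2.41 ± 0.20) and *Uqcr11* (2.36 ± 0.19). Of the assembly factors 16 of 21 tested were higher (median 1.23), and *Cox10* was lower (-0.44 ± 0.15). Of the maturation and apoptosome list 5 of 9 were higher (median 0.99).

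**Figure D3:**
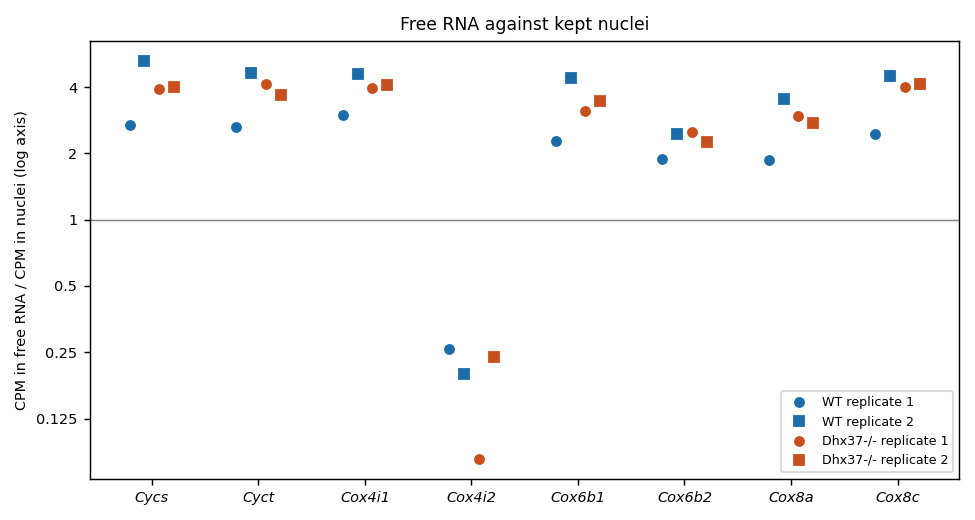
Ratio of the level in free RNA to the level in kept nuclei of the same library, for each isoform, on a log axis with a grey line at 1. The ratios of 7 isoforms lie between 1.87 and 5.27 in all 4 libraries, and those of *Cox4i2* between 0.08 and 0.26.

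Between genotypes the value that chose the genes comes first. In Sertoli nuclei *Cycs* was at 24.7 and 34.7 CPM in WT and at 86.6 and 66.4 CPM in Dhx37-/-, from 10, 4, 87 and 123 UMIs, and its log2 fold change was 1.39 ± 0.41. The lower Dhx37-/- value exceeded the higher WT value for *Cycs*, as the choice of the set requires, so *Cycs* is not counted. Of the other members *Cox6b1*, *Cox6b2* and *Cox8a* did so, beside 25.8% of all genes with 10 or more UMIs over the libraries. *Cox8a* reached these 10 UMIs only with the Dhx37-/- counts. The free RNA of the same libraries moved alike, with *Cycs* at 24.7 and 46.4 CPM in WT and 106 and 76.5 CPM in Dhx37-/-. The part it would add to Sertoli nuclei was 4.04, 4.45, 11.002 and 6.67 CPM, and with that part taken away the log2 fold change of *Cycs* was 1.52 ± 0.41. The other members tested in Sertoli nuclei were at 1.28 ± 0.57 (*Cox8a*), 0.68 ± 0.38 (*Cox8c*), 0.64 ± 0.43 (*Cox4i1*), 0.63 ± 0.55 (*Cox6b1*), 0.40 ± 0.33 (*Cox6b2*) and 0.27 ± 0.50 (*Cyct*). Without WT replicate 1 *Cyct* was at -0.14, *Cox4i1* at -0.18, *Cox8a* at 0.52 and *Cox8c* at 0.19, and without WT replicate 2 *Cox4i1* was at 1.36. These rest on few UMIs in the WT, with 4 and 3 for *Cox8a*, 8 and 2 for *Cox6b1* and 8 and 4 for *Cyct* in WT replicates 1 and 2. *Cox4i2* had 0, 1, 3 and 6 UMIs.

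In the 8 other classes no member was called between genotypes by edgeR's quasi-likelihood test or by DESeq2 (smallest adjusted p in edgeR, 0.142). Of 64 member and class combinations 55 passed the filter on low counts. Of these, 10 reached its level in both Dhx37-/- but not in both WT libraries and 2, of *Cox4i2*, in both WT but in no Dhx37-/- library. The filter favoured one direction in these 12, and the directions of the estimates are not counted here. The counts of members at an unadjusted p that follow include these 12, so they are a description and no support is drawn from them. At an unadjusted p under 0.05 in edgeR were 4 of 7 members in Leydig (6.93% of all genes), 6 of 7 in macrophage (10.7%), 3 of 7 in fibroblast (8.52%) and 1 of 5 in spermatogonia nuclei (23.4%). In early prophase it was 1 of 7 (25.7%), in late spermatocytes 4 of 8 (15.9%), in round spermatids 2 of 6 (6.36%) and in elongating spermatids 5 of 8 (9.95%). Genes called were 0% of those tested in Leydig, round spermatid and elongating spermatid nuclei, 0.0799% in macrophage, 0.053% in fibroblast, 4.27% in spermatogonia, 8.69% in early prophase and 0.00692% in late spermatocyte nuclei. DESeq2 gave an unadjusted p under 0.05 for 3 of 7 members in Leydig (1.69% of all genes), 1 of 7 in macrophage (2.88%), 1 of 8 in late spermatocyte (8.31%) and 2 of 8 in elongating spermatid nuclei (4.32%). It gave 0 in fibroblast (2.05%), spermatogonia (10.8%), early prophase (14%) and round spermatid nuclei (1.9%). With WT replicate 2 left out 1 to 4 members passed in each class but late spermatocytes, among them *Cox4i1* in Leydig (1.77), fibroblast (0.93), spermatogonia (1.42), early prophase (1.005), round (1.05) and elongating spermatid nuclei (0.83). The share of all genes called was then 0.147% in Leydig, 1.72% in macrophage, 3.20% in fibroblast, 6.25% in spermatogonia, 8.21% in early prophase, 7.11% in round and 11.6% in elongating spermatid nuclei.

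**Figure D4:**
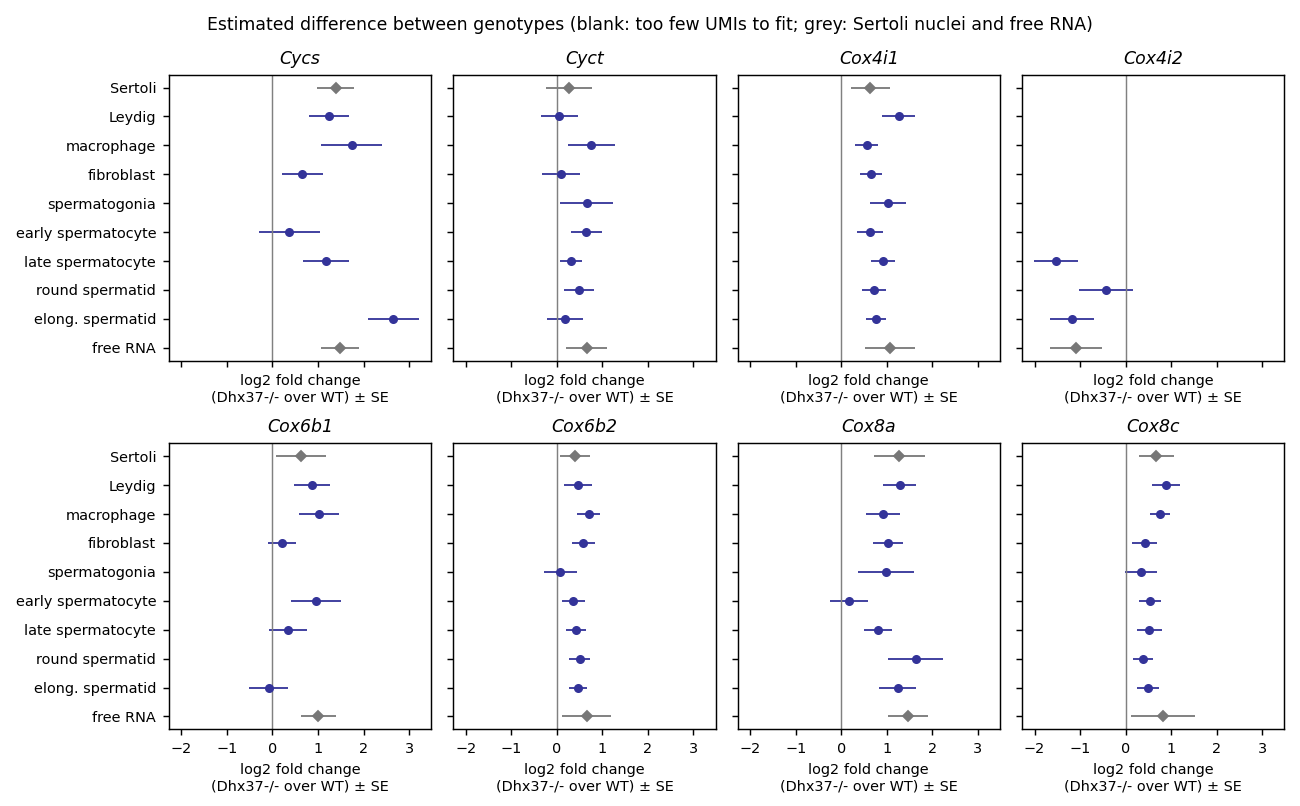
Log2 fold change of Dhx37-/- over WT with its SE for each isoform in each class, from edgeR, with Sertoli nuclei and free RNA as grey diamonds and a line at 0. In free RNA the estimates for 7 isoforms lie right of 0 and that of *Cox4i2* lies left of it. Of the 55 estimates in classes other than Sertoli nuclei, the filter on low counts favoured a higher value in Dhx37-/- in 10. It favoured a lower value in 2, both of *Cox4i2*, so directions in the classes are not counted.

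In elongating spermatids *Cycs* was at 2.43, 3.26, 22.3 and 16.0 CPM, from 2, 3, 40 and 18 UMIs (2.66 ± 0.57, adjusted p = 0.481). It passed the filter on low counts through the Dhx37-/- libraries, so the filter favoured this direction. In round spermatids, from 3, 0, 14 and 15 UMIs, *Cycs* did not pass the filter. The part expected from free RNA was 5.55, 5.54, 14.6 and 12.2 CPM, so it differed between genotypes too and exceeded the level in both WT libraries. In Leydig nuclei *Cycs* was at 17.2 and 23.8 CPM in WT and at 56.9 and 38.9 CPM in Dhx37-/- (1.24 ± 0.45, adjusted p = 0.698). In early prophase spermatocytes its values of 16.4, 41.9, 55.5 and 23.9 CPM overlapped between genotypes.

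Estimates for *Cox4i1* were 0.56 to 1.26 on the log2 scale in the 8 classes, and those for *Cox8a* 0.17 to 1.63. In spermatogonia, round and elongating spermatids (0.985, 1.63 and 1.24) *Cox8a* reached the filter level in both Dhx37-/- but not in both WT libraries. The filter favoured that direction there. *Cox4i2* was tested in 3 classes, in late spermatocytes, at 13.05 and 16.0 CPM in WT and 5.25 and 4.71 CPM in Dhx37-/- (-1.53 ± 0.48, adjusted p = 0.204), in round spermatids (-0.43 ± 0.59) and in elongating spermatids (-1.18 ± 0.49, adjusted p = 0.491). In late and elongating spermatids it passed the filter through the WT libraries alone, so the filter favoured a lower value in Dhx37-/-. In free RNA, a comparison added after the data were seen, none of 22332 genes was called (0%, 4116 at an unadjusted p under 0.05). *Cycs* was at 1.48 ± 0.42 there, *Cox8a* at 1.47 ± 0.44, *Cox4i1* at 1.07 ± 0.56, *Cox6b1* at 1.01 ± 0.39, *Cox8c* at 0.82 ± 0.69, *Cox6b2* at 0.66 ± 0.54, *Cyct* at 0.65 ± 0.46 and *Cox4i2* at -1.09 ± 0.56. The part of free RNA in the differences between nuclei was not tested beyond the subtraction.

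Counted by library, with at least 10 UMIs in a class, the Dhx37-/- values exceeded every WT value for 6 of 7 members in Leydig (22.7% of genes), 7 of 7 in macrophage (21.2%) and 5 of 7 in fibroblast nuclei (20.4%). It was 5 of 7 in spermatogonia (30.5%), 6 of 8 in early prophase (28.9%) and 6 of 8 in late spermatocytes (23.0%). It was 6 of 8 in round (20.5%) and 5 of 8 in elongating spermatids (23.6%). *Cox4i2* alone lay below in late spermatocytes (22.3% of genes) and elongating spermatids (16.0%). Over all kept nuclei and over free RNA, 7 members lay above (31.3% and 20.7% of genes) and *Cox4i2* below (18.3% and 30.5%). The limit of 10 UMIs is on the sum of the 4 libraries, for members and for all genes. Some members reached it only with the Dhx37-/- counts, such as *Cycs* in macrophages (4, 1, 15 and 11 UMIs), which favours this direction. The kept nuclei include the Sertoli nuclei whose *Cycs* values chose the set. The counts also rest on the same 4 libraries as the Sertoli values, and members share them. They are descriptions, and no support is drawn from them.

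Other genes of the same complexes were looked at between genotypes. The median of the other oxidase subunits was 0.48 to 0.75 in the 8 classes and 0.83 in free RNA, that of complex III subunits 0.22 to 0.66 and 0.81, while the median of all genes tested lay between -0.06 and 0.04. Assembly factors had medians of -0.11 to 0.53 and the maturation and apoptosome list 0.02 to 0.65. Called were 3 genes of the 4 lists, all higher in Dhx37-/- and named here after their values were seen. They were *Cox5b* in macrophages (2.74 ± 0.48, adjusted p = 0.0445) and *Uqcr10* and *Taco1* in early prophase spermatocytes (1.80 ± 0.47 and 1.99 ± 0.35), where 0.0799% and 8.69% of all genes were called. Of 14 alternatives, 8 called *Cox5b*, 6 called *Uqcr10* and 13 called *Taco1*. The call of *Cox5b* ended in DESeq2 (adjusted p = 0.35), with RLE (0.0678), the study filter alone (0.0666), a stricter gate (0.064) and doublets removed (0.0519), and it could not be tested with free RNA subtracted. *Uqcr10* was not called in DESeq2 either (adjusted p = 0.232).

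As a last description, the profile of each member's mean level over the 9 classes was compared with those of 13949 genes of at least 10 CPM on average, by Pearson's r of log2(CPM + 1). The points share libraries and free RNA, and the profile of *Cycs* holds the Dhx37-/- Sertoli values that chose the set. The most alike were *Wsb2* (0.97), *Tmem29* (0.97) and *Nif3l1* (0.96) for *Cycs*, and *Platr28* (0.99), *Gm49455* (0.99) and *Gm15398* (0.98) for *Cyct*. For *Cox4i1* they were *Ndufv2*, *Psmc5* and *Snrpg* (0.98, 0.97 and 0.96), for *Cox6b1* *Psme1*, *Ndufa4* and *Kif1c* (0.98 each), and for *Cox8a* *Ndufc2*, *Nob1* and *Gpr108* (0.98, 0.96 and 0.96). For *Cox6b2* they were *Dnah3*, *Gm40438* and *Gm973* (0.997, 0.993 and 0.992) and for *Cox8c* *1700018B24Rik*, *Efcab5* and *Pdzd9* (0.997, 0.994 and 0.992). *Cox4i2* was under that level. *Dnah3* encodes an axonemal dynein, and *Ndufv2*, *Ndufc2* and *Ndufa4* encode respiratory chain subunits. Among the members, *Cyct* was most like *Cox8c* (0.90) and *Cox6b1* most like *Cox8a* (0.90).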

How the data were processed

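Nuclei of whole testes were profiled with 10x Genomics 3′ v3 chemistry. The authors deposited raw UMI counts per gene and barcode, without normalization. The file headers name Cell Ranger 7.2.0 and the study an older release. The study names mm39 as the genome, whereas the submitters' processing notes name GRCm38 and mm10, and whether introns were counted is not given in the sources used here. Coordinates and promoters printed are those of RefSeq on GRCm38.p6.

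Barcodes were called as nuclei by UMI number or by a test against free RNA (10000 simulations, adjusted p under 0.01) and kept where 500 to 5000 genes were detected, UMIs numbered 500 or more and mitochondrial UMIs made up 25% or less. Doublets (4.18% to 4.63% by Scrublet in scanpy 1.11.5) were removed in an alternative only. A nucleus joined a class when its marker score (z) reached 4 for somatic classes, 2.5 for spermatogonia and early prophase and 2 for later germ cells, led by 1 and rested on 3 markers. These limits were set after the purity of non-marker genes had been seen. Classes were compared with at least 20 nuclei in each library, so T cells, endothelial and peritubular myoid cells were left out. Free RNA shares came from *Prm1*, *Prm2*, *Tnp1* and *Tnp2* in each class. They may be too high in round spermatids, which may transcribe these genes, and elongating spermatids took the round spermatid value. The same genes are gate markers of elongating spermatids, so the gate may lower the shares in the other classes, which was not tested. For some members the part expected from free RNA exceeded the measured mean outside spermatids too. It was 37.6 beside 26.3 CPM for *Cyct* in macrophages and 91.1 beside 80.7 CPM for *Cox6b2* in Sertoli nuclei. The expected part can therefore be too high there, while for other members it was below the measured mean.

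Sums per class and library were tested across all genes with edgeR 4.0.16 (TMM, filterByExpr, quasi-likelihood F-test, two-sided, library as a block between classes, called at a Benjamini-Hochberg adjusted p under 0.05), after trials on simulated data, with DESeq2 1.42.0 as an alternative. A fold change is log2 of CPM with edgeR's prior count. Its SE was back-calculated as the absolute fold change over the square root of the F statistic, so it is approximate. Pseudogene copies of *Cycs* (*Cycs-ps2*, *Cycs-ps3*) had at most 10 UMIs in a library. Named genes were the members, for each member the 3 genes most like it, and from 4 lists of pathway genes up to 3 called genes with the largest change in each direction per class comparison. Members and lists were chosen with earlier results of these data known.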

Additional observations from a re-analysis of the deposited data

Results flagged for a closer look

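The difference in *Cox8a* between spermatogonia and late spermatocytes had opposite signs in the genotypes. Late spermatocytes held 1.73 and 4.50 CPM more in the WT libraries and differed by -6.26 and -5.40 CPM in the Dhx37-/- libraries. The mean difference between genotypes was -8.95 CPM. It was not tested. *Cox8a* had 4, 4, 10 and 28 UMIs in spermatogonia, where 1 UMI is worth 6.59, 11.4, 7.40 and 2.66 CPM, so 3 of the 4 differences are under 1 UMI.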

How the results depend on the processing

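Of the counts of called members and isoform shares under alternatives, 251 stayed within 1.5 times or 1 SD and 27 did not. Of the members' fold changes outside Sertoli nuclei, 1119 kept their direction and side of the threshold, 42 passed it only under the alternative, 18 no longer passed and 25 changed sign, none of which had been called. Depth limits *Cycs*, *Cox4i2*, *Cox6b1*, *Cox8a* and *Cyct*, with under 10 UMIs in several sums each, and spermatogonia, whose sums hold 87597 to 375854 UMIs. Except where a value or the construction of the alternative is given, the cause was not tested.

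From spermatogonia to late spermatocytes 1 member was called with a stricter gate (48.9% of all genes) and 1 with free RNA subtracted (46.1%). The main fit called 2 there (53.3%). From spermatogonia to round spermatids 4 were called with no filter on low counts (30.3% of all genes), against 2 in the main fit (64.8%). Members not called before that were called under an alternative were *Cyct* (RLE, no filter on low counts, without WT replicate 2) and *Cox6b2* (no filter) from spermatogonia to late spermatocytes, *Cox8c* (no filter, stricter gate, free RNA subtracted) and *Cox6b1* (no filter, without WT replicate 1) from spermatogonia to round spermatids, and *Cox4i1* (without WT replicate 1) between round spermatids and Leydig nuclei. With free RNA subtracted 3 were called between round spermatids and Sertoli nuclei (85% of all genes), where 4 could be tested. The main fit called 5 there (84.5%), and *Cycs* was among those called in both. Without the filter 1 member was called between genotypes in elongating spermatids, *Cycs* (2.75, adjusted p = 0.0191 in edgeR, with 0.191% of all genes called). Replicate numbers only name the libraries, since deviations of libraries with the same number correlated at -0.253 to -0.002 over the classes. The fit with the replicate block called 0 members in each of the 8 classes, as the main one did. Crossed pairing, added after the data were seen, called 2 members in Leydig, 1 in macrophage, 1 in spermatogonia and 1 in late spermatocyte nuclei, where 0.658%, 2.41%, 16.3% and 4.30% of all genes were called. Removing the upper limit on genes, also added afterwards, called 0.

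Leaving out each library in turn gave 1 to 3 members called from spermatogonia to late spermatocytes, 0 to 1 between genotypes in Leydig, macrophage, spermatogonia and early prophase nuclei, 0 to 2 in fibroblasts, 0 to 3 in round and 0 to 4 in elongating spermatids. These genotype calls arose without WT replicate 2, apart from 4 in elongating spermatids without WT replicate 1 (8.31% of all genes). The remaining WT library then has no spread of its own and takes that of the Dhx37-/- pair.

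Free RNA subtraction moved the share of *Cyct* to 18.1% in Sertoli nuclei and 95.7% in late spermatocytes, of *Cox4i2* to 6.34%, 13.1% and 21.4% in Sertoli nuclei, late spermatocytes and round spermatids, of *Cox6b2* to 6.55%, 73.3% and 99.5%, and of *Cox8c* to 44.4% in Sertoli nuclei. These means include libraries where the expected part exceeded the measured count and no UMI was left. For *Cox6b2* these were late spermatocytes of WT replicate 1, and Sertoli nuclei of both WT libraries and Dhx37-/- replicate 1. For *Cox8c* it was Sertoli nuclei of WT replicate 1. Of the common forms, no *Cox6b1* UMI was left in round spermatids of WT replicate 2 and both Dhx37-/- libraries. No *Cycs* UMI was left in late spermatocytes of WT replicate 1. The share of the second form is complete there by construction. The subtraction turned the genotype estimate of *Cox8a* in early prophase (-0.388), *Cox8c* in round (-0.059) and *Cyct* in elongating spermatids (-0.657).

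Without the filter *Cycs* from spermatogonia to late spermatocytes was at 0.018, *Cyct* from spermatogonia to round spermatids at 0.051, *Cox4i1* from round to elongating spermatids at 0.012 and *Cox6b1* between genotypes in elongating spermatids at 0.004 (0.108 with the study filter alone). *Cox8a* from spermatogonia to late spermatocytes was at -0.047 with doublets removed and -0.034 without the library block. Between genotypes the stricter gate turned *Cox6b2* in spermatogonia (-0.624) and *Cox6b1* in late spermatocytes (-0.019), and removing doublets *Cyct* in Leydig nuclei (-0.065). Leaving out a library gave -0.701 to 0.072 for *Cycs* and -0.049 to 0.119 for *Cox8a* from spermatogonia to late spermatocytes. Between genotypes it gave -0.047 to 0.165 for *Cyct* in Leydig nuclei, -0.041 to 0.266 for *Cyct* and -0.036 to 0.917 for *Cox8c* in fibroblasts, -0.267 to 1.05 for *Cycs* in early prophase, -1.059 to 0.66 for *Cox4i2* in round spermatids, and -0.274 to 0.96 for *Cyct* and -0.289 to 0.218 for *Cox6b1* in elongating spermatids.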
